A study of Mus musculus with 48 samples.

Results

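Amygdala punches from 48 mice were ordered by the level of Mog, which encodes myelin oligodendrocyte glycoprotein, a protein of the outer face of the myelin sheath, and the 12 libraries with the highest Mog were set against the 12 with the lowest. The libraries were thus chosen by Mog itself, one gene of the same measurement, without regard to genotype or drug. The 24 libraries between them, ranked 13 to 36, were not used by that choice and served for the tests. The animals were adult female mice of the strain labelled C57BL/6NTac-Brd1, either wild type (WT) or heterozygous for a targeted deletion in Brd1 (Brd1+/-), a gene for a chromatin reader protein linked to psychiatric disease. Each genotype was injected with saline vehicle, with the tricyclic antidepressant imipramine (IMN, 10 mg/kg) or with the serotonin reuptake inhibitor fluoxetine (FLX, 5 mg/kg), which gave 6 groups of 8 libraries. All animals, controls included, went through the same behavioural tests before the right amygdala was punched from a frozen coronal slice with a needle, so a punch holds whatever tissue lay under the needle. One library came from one animal, and the values are TPM (transcripts scaled to a common library total), a level that also takes account of transcript length.

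Myelin is the lipid-rich membrane that mature oligodendrocytes wrap around axons. Its compact part is held together by abundant small proteins such as myelin basic protein (Mbp), and its lipids include galactosylceramides and sulfatides made by enzymes that few other brain cells use at a high level. Oligodendrocytes arise from precursors that carry the PDGF receptor Pdgfra and the proteoglycan Cspg4, pass through a premyelinating stage marked by Enpp6 and Bcas1, and mature under transcription factors such as Sox10 and Myrf. White matter tracts such as the external capsule and the stria terminalis border the amygdala. In bulk tissue, fewer cells of a type and less RNA per cell cannot be told apart.

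The 4 promoters shown here belong to Mog, the gene that ordered the libraries, to Mag and Cnp, 2 myelin genes that moved with it, and to Klk6, which had the largest difference of the named genes. Each line gives the 250 bases before a RefSeq transcription start (GRCm38.p6), 5′ to 3′ on the gene's strand. Capitals mark the letters ACAAAG, the core of SOX family sites, or CTGGCAC and CTGGTAC, forms of the motif of MYRF, each read on both strands.
Mog (chr17:37023399-37023648, minus strand): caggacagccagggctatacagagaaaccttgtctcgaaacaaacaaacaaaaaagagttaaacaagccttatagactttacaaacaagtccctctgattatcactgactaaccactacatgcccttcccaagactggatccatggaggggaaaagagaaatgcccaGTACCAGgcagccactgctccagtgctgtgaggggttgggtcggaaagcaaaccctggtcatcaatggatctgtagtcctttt
Mag (chr7:30914864-30915113, minus strand): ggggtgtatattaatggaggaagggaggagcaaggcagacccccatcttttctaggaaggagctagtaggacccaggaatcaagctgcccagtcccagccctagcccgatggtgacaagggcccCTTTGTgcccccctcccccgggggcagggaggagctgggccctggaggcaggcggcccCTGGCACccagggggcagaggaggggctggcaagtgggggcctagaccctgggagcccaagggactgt
Cnp (chr11:100574689-100574938, plus strand): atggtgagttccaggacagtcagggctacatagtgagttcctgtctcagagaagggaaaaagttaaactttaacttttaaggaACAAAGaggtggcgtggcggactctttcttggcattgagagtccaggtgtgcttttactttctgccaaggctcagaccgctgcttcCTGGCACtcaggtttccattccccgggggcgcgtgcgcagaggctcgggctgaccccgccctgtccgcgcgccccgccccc
Klk6 (chr7:43824294-43824543, plus strand): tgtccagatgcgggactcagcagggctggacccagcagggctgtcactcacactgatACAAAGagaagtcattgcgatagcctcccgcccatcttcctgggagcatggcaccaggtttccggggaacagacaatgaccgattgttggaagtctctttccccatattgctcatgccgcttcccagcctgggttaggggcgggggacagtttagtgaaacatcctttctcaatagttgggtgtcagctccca
The Mog window held a MYRF motif 83 bases before the start and no ACAAAG. Both kinds stood in the printed Mag and Cnp windows, with the MYRF motif 68 and 81 bases before the start. The printed Klk6 window held ACAAAG only. Mag had 3 RefSeq windows and Klk6 2, whereas Mog and Cnp had 1 each. The window printed was the first with both kinds or, failing that, with either, so the motifs were part of its choice. Of 48 oligodendrocyte genes listed for this work besides Mog, 33 had an entry among the RefSeq promoters, with 47 windows of 300 bases (250 before to 50 after the start). CTGGCAC or CTGGTAC was present in 14.9% of these windows and in 7.1% of all 32851 promoters, and ACAAAG in 21.3% and 18.7%. Mag, Cnp and Opalin were the listed genes with both kinds in one window. These are matches of letters and not measured binding sites.

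Mog varied 24.01-fold over the 48 libraries, from 15.6 TPM in WT vehicle 4 to 373.8 TPM in Brd1+/- vehicle 7. The last library inside the high set had 172.5 TPM and the first outside it 167 TPM, and at the other end the values were 53.4 TPM just outside the low set and 47.5 TPM just inside it. There was thus no gap at either edge, and the 2 sets are the ends of a continuous range. The mean was 259 TPM ± 73.9 (SD, n = 12) in the high and 32.1 ± 10.2 (SD, n = 12) in the low set. Mbp, the other marker of myelin-rich punches, ran from 790 to 3571 TPM with a median of 1843 in the high set, and from 124.5 to 342 TPM with a median of 200 in the low set. The Mbp ranges of the 2 sets did not overlap, and its log2 difference was 3.10 (SE 0.25). Ranking by the 15 other myelin proteins in place of Mog kept 11 of the 12 high and 11 of the 12 low libraries. The high set can therefore be called myelin-rich by genes that did not rank it, although those genes come from the same libraries.

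**Figure D1:**
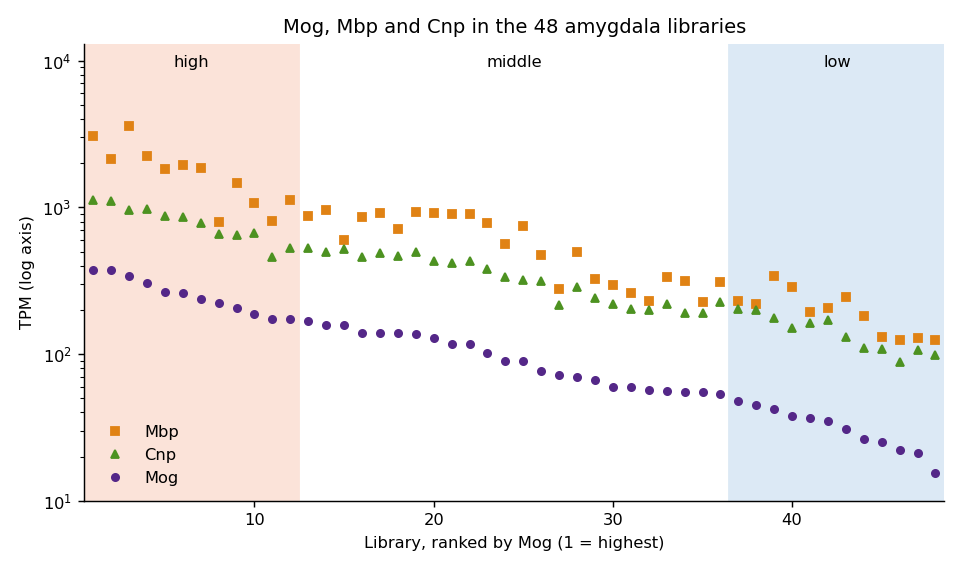
TPM of Mog, Mbp and Cnp (log axis) in each of the 48 libraries, placed by rank of Mog from the highest (1) to the lowest (48); the shaded bands are the 12 high and 12 low libraries. Mog falls without a gap from 373.8 to 15.6 TPM, and Mbp and Cnp both lie above Mog in every library.

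Every one of the 48 genes of the 4 oligodendrocyte lists was higher in the high set. Of the 48, 45 were at least 2-fold higher, where 5.55% of the 19221 genes with a mean of at least 1 TPM were, and the ranges of the sets did not overlap for 45, where 2.94% of all genes stood clear in that direction. The median log2 difference of the 48 was 2.53 (5.77-fold), against −0.03 over all genes. Because Mog chose the libraries, these values describe the sets and carry no test.

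The proteins of the myelin membrane had the largest median of the 4 lists, 2.76 on the log2 scale. Mobp, which lies on the cytoplasmic face of the sheath, had means of 2624 TPM ± 856 and 328 ± 133.2, which is 3.06 apart on the log2 scale (SE 0.23, 12 libraries a set). Mag, the adhesion protein facing the axon, had means of 524 TPM ± 132.9 and 77.1 ± 25.1, and Cnp, a phosphodiesterase of the non-compact sheath, 805 ± 218 and 142.01 ± 40.1. Cldn11, which forms the tight junctions of the sheath, and Ermn, a cytoskeletal protein of late oligodendrocytes, differed by 2.96 and 3.11. The members with the smallest differences also have a place in neurons: Cntn2, an axonal adhesion protein near the node, differed by 1.45, Nfasc, which has neuronal and glial forms, by 0.69, and Omg by 0.26. For Omg the ranges overlapped, with 85.9 to 139.2 TPM in the high and 82.4 to 117 TPM in the low set.

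Myelin lipid genes followed with a median of 1.96, and all 7 stood clear of overlap. Ugt8a, which makes galactosylceramide, had means of 129 TPM ± 36.1 and 18.6 ± 5.79, Fa2h, which hydroxylates the fatty acids of these lipids, 132.9 ± 35.4 and 18.5 ± 6.63, and Aspa, which releases acetate from N-acetylaspartate, 70.4 ± 18.9 and 8.78 ± 4.22 (SD, n = 12 each). Gal3st1, the sulfatide sulfotransferase, differed by 1.93. The 2 enzymes that other cells also use for long-chain lipids, Cers2 and Elovl1, differed least, by 1.41 and 1.12. By contrast none of the 15 genes of cholesterol synthesis was 2-fold apart. Their median difference was −0.08, 9 were lower and 6 higher, and Sqle, the squalene epoxidase of the pathway, had 48.3 TPM ± 10.7 in the high and 57.8 ± 9.16 in the low set (SD, n = 12 each). Between these ends the cholesterol genes did not share the difference of the myelin lipid genes. Inside the 24 middle libraries, tested as described for the slopes on Mog, 8 of the 15 rose with Mog and 0 fell (limma, 11 at an unadjusted p under 0.05). Over all 19221 genes 24.3% rose, 6.7% fell and 8413 had an unadjusted p under 0.05. The 15 had a median slope of 0.31, against 0.13 over all genes, with 14 slopes above 0, and Sqle rose with a slope of 0.59 (limma, adjusted p = 0.0333). With median-ratio scaling 0 of the 15 passed (4 at an unadjusted p under 0.05, median slope 0.13), and with the study groups as a term 0 passed (10 at an unadjusted p under 0.05, median slope 0.38). Of all genes 2.63% and 2.12% rose under these 2 changes.

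Among the other mature markers, all 17 were at least 2-fold higher. Gjb1, the connexin that joins the layers of the sheath, had the largest difference of the 4 lists, 3.36 (SE 0.21), with 28.3 to 79.7 TPM against 2.47 to 8.12 TPM. Trf, the iron carrier made by oligodendrocytes, had 531 to 967 TPM against 61.3 to 142.4 TPM. Hapln2, a link protein of nodes of Ranvier, differed by 3.10, and Car2 and Qdpr, enzymes of wider use in the brain, by 1.67 and 1.58.

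The transcription factors differed less, with a median of 1.72. Myrf, which switches on myelin genes after the exit from the cell cycle, had 94.5 TPM ± 22.3 and 13.8 ± 4.48 (SD, n = 12 each), a difference of 2.80 that is close to those of the myelin proteins. Nkx6-2 and St18 were likewise at 2.71 and 2.56. Sox10, Olig2 and Olig1, which precursors share with mature cells, differed by 1.78, 1.58 and 1.42. Sox8 differed by 0.59 with overlapping ranges, 49.7 to 102 TPM against 37.4 to 60.5 TPM.

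The list of precursor and newly formed cells was graded, with 10 of its 11 genes higher in the high set and 1 lower. Pdgfra and Cspg4, the defining markers of precursors, had 42.9 TPM ± 5.77 against 37.5 ± 7.80 and 14.8 ± 3.67 against 14.4 ± 3.99, differences of 0.21 (SE 0.10) and 0.05 (SE 0.17). Enpp6 ran from 20.6 to 51.1 TPM in the high and from 1.32 to 9.18 TPM in the low set, a difference of 3.37, and Bcas1 from 160 to 591 TPM and from 36.2 to 90.9 TPM, a difference of 2.19. These 2 were the members of the 11 that passed 2-fold, and the list's median was 0.47. Neu4 and Vcan lay between, with differences of 0.91 (SE 0.13) and 0.82 (SE 0.19) and overlapping ranges. Mature myelinating cells also keep Bcas1 and some Enpp6, so neither marks new cells alone.

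**Figure D2:**
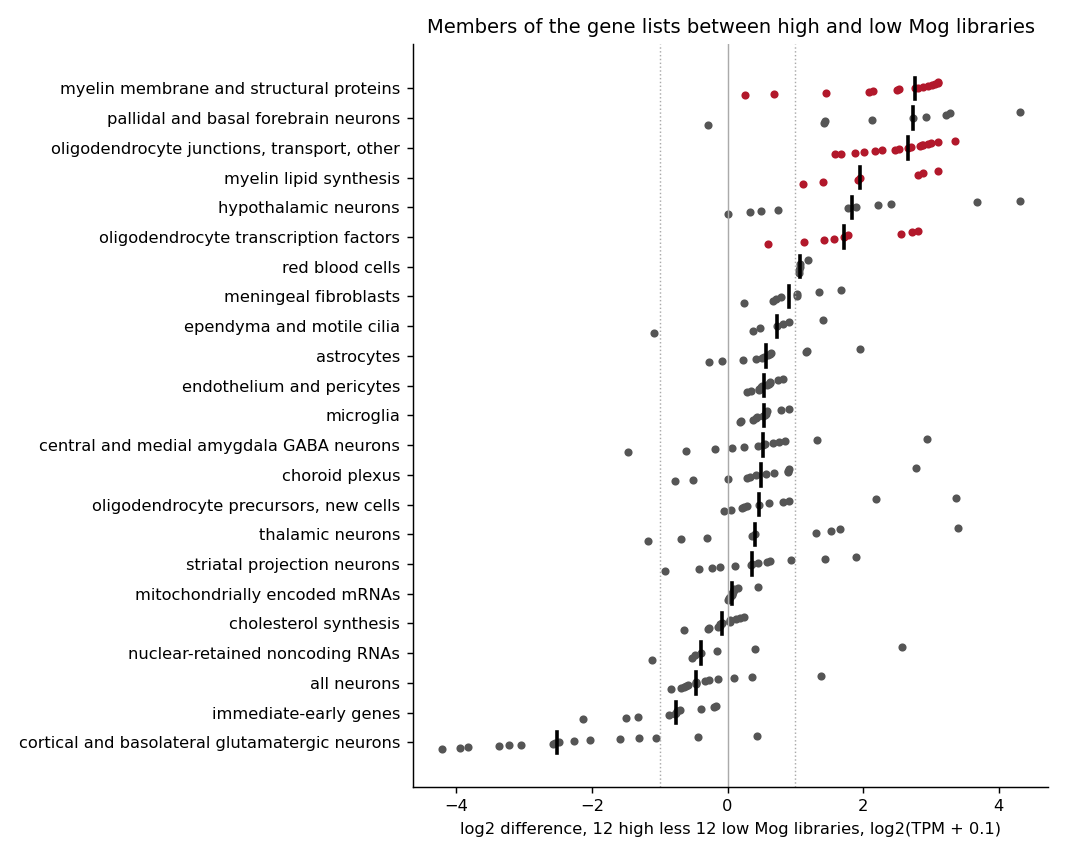
Log2 difference between the 12 high and the 12 low Mog libraries, on the log2(TPM + 0.1) scale, for each member of the 23 gene lists (points), with the list median (black bar); dotted lines mark 2-fold, and the 4 oligodendrocyte lists are in red. The oligodendrocyte lists lie at medians of 1.72 to 2.76 and the cortical and basolateral glutamatergic list at −2.51.

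The genes that went with myelin beyond the lists were named as those with the largest difference among genes of at least 5 TPM whose sign was the same within all 6 study groups. Klk6, a secreted serine protease made by oligodendrocytes, stood first, with a log2 difference of 7.07 (SE 0.57). It had 13.8 to 101 TPM in the high set (median 31.1) and at most 1.84 TPM in the low set, where 7 of the 12 libraries listed it at 0, so the size of the difference depends on the pseudocount. Cyp2j12, a cytochrome of fatty acid metabolism, had 8.06 to 22.1 TPM against 0 to 3.02 TPM, and Cyp27a1, the mitochondrial sterol 27-hydroxylase, 16.9 to 47.2 TPM against 0 to 4.56 TPM. Itgb4, the integrin beta chain of hemidesmosomes, had 30.9 TPM ± 8.03 against 2.23 ± 1.96, and Prr5l, a partner of the mTORC2 kinase, 35.5 ± 11.8 against 2.45 ± 1.67 (SD, n = 12 each). Insc, Rab37, Adamtsl4, Dock5 and the lincRNA A230001M10Rik were 3.54 to 4.56 higher on the log2 scale without overlap. The 2 remaining genes overlapped between the sets. Prima1, which anchors acetylcholinesterase, had 11.0 to 45.1 TPM against 0 to 12.97 TPM. Gm27505, a short annotated RNA, had 3.47 to 735 TPM against 2.18 to 153 TPM and lies inside Neat1 on the same strand, so that their reads cannot be told apart; Neat1 itself was at 70.6 TPM ± 24.4 against 13.7 ± 10.7.

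Over all 48 libraries, levels most like that of Mog on the log2 scale included those of Tmem88b (Pearson r = 0.995), Fa2h (0.994), Cldn11 (0.994) and Cnp (0.991). Tmem88b, a membrane protein outside the lists, had 87.8 to 196 TPM in the high and 8.65 to 24.6 TPM in the low set. These correlations share the 48 libraries that Mog ordered and are a description.

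Other glial and vascular genes were higher too, but by less. All 12 microglial and all 12 endothelial and pericyte genes were higher, with medians of 0.54 each, and none reached 2-fold. Of 12 astrocyte genes, 10 were higher, with a median of 0.57. Gfap, the filament protein of fibrous and reactive astrocytes, had 114 to 685 TPM against 34.0 to 165 TPM, a difference of 1.96, and Aqp4 and S100b differed by 1.17 and 1.16 without overlap. The glutamate transporters Slc1a2 and Slc1a3 differed by −0.28 and −0.08. The 5 red blood cell genes were 1.05 to 1.19 higher, and the 8 meningeal fibroblast genes had a median of 0.91. In the 24 middle libraries, where 24.3% of all genes rose with Mog, 1 of 12 microglial genes rose (median slope −0.01) and 1 of 8 fibroblast genes (0.62). Of 12 endothelial and pericyte genes 0 rose (−0.01, limma, 0 at an unadjusted p under 0.05), and of 5 red blood cell genes 0 (0.17, also 0). These lists moved with the order of the ends, and their part in the other differences was not tested.

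The genes lower in the high set were led by excitatory neurons of the cortex and basolateral amygdala. Of 16 such genes, 15 were lower and 14 at least 2-fold, where 3.87% of all genes were 2-fold lower, and the median log2 difference was −2.51. Slc17a7, the vesicular glutamate transporter of these cells, ran from 6.16 to 739 TPM in the high set with a median of 21.6, and from 180 to 1346 TPM in the low set with a median of 749, a difference of −4.21 (SE 0.71). The sets overlapped for Slc17a7, and for all 16 genes of the list, whereas 0.879% of all genes stood clear in that direction. Neurod2, a transcription factor of the same cells, differed by −3.94, and Emx1, a marker of the cortical lineage, by −3.83. Camk2a, an abundant kinase of excitatory synapses, had 305 TPM ± 138.6 against 854 ± 200 (SD, n = 12 each).

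The 12 lower genes named by the same rule held several genes of neurons. C1ql3, a synaptic organiser of excitatory neurons, had 31.1 TPM ± 40.8 against 143 ± 59.6, and Crhbp, which binds corticotropin-releasing hormone, 7.33 ± 5.91 against 34.7 ± 12.01. Sv2b, a synaptic vesicle protein, had 50.1 ± 33.0 against 210 ± 70.5, and the somatostatin receptor Sstr2 12.2 ± 7.87 against 41.9 ± 14.5 (SD, n = 12 each). Myl4, Ccdc42, Sidt1, Chrd, Vill and Igfbp6 differed by −3.49 to −2.02. Mir7220 lies inside Camk2a on the same strand and cannot be told apart from it, and Gm5224 is a pseudogene whose reads may belong to its parent gene. All 12 overlapped between the sets.

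Of 14 genes shared by all neurons, 11 were lower, with a median of −0.46 that was smaller in size than that of the glutamatergic list, and Syn1 and Syt1 were the members without overlap, at −0.84 and −0.69. Nefh, the heavy neurofilament of large axons, was the one member at least 2-fold higher, with 65.9 TPM ± 35.9 against 21.9 ± 4.66. The 11 immediate-early genes were all lower, with a median of −0.76, and Fosb stood at 8.44 TPM ± 5.19 against 21.7 ± 5.86. Junb, one of the 11, was listed at 0 in 23 of the 48 libraries and at 18.4 TPM or more in the others. In a gene of such wide use this can be a failed estimate, so its own difference is not read. The count and the median of the list still include it.

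Markers of the labelled tissue were present in both sets at uneven levels. Gad1, which makes GABA and marks the inhibitory neurons that fill the central and medial amygdala, had 481 TPM ± 218 in the high and 305 ± 79.1 in the low set, and Prkcd, a kinase of a central amygdala cell class, 65.9 ± 49.5 and 24.9 ± 19.1 (SD, n = 12 each). Of the 13 genes of that list 10 were higher, with a median of 0.53, and Npy, a peptide of interneurons, went the other way at 84.8 ± 38.7 against 205 ± 53.1. Rspo2, a marker of basolateral neurons, ran from 0.571 to 8.67 TPM in the high and from 1.17 to 31.4 TPM in the low set, so that the basolateral marker was near 0 in part of the punches. List medians were −0.39 for nuclear-retained noncoding RNAs, 0.37 for striatal, 0.41 for thalamic, 0.49 for choroid plexus genes and 0.73 for ependyma and motile cilia.

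Markers of tissue next to the amygdala moved with the order as well. Chat, the enzyme that makes acetylcholine and a marker of basal forebrain neurons, had 0.13 to 56.9 TPM in the high set and 0 to 10.4 TPM in the low set, and 8 of 9 pallidal and basal forebrain genes were at least 2-fold higher, with a list median of 2.74. The range of that list overlapped except for Zic1, at 7.45 to 29.1 TPM against 2.11 to 5.47 TPM. All 10 hypothalamic genes above 1 TPM on average were higher, with a median of 1.84, but many values were 0. Pmch, the melanin-concentrating hormone precursor, was listed at 0 in 4 high and 8 low libraries and reached 5702 TPM in one high library. The sum of the hypothalamic list had a similar median in the sets, 41.1 TPM in the high and 36.7 TPM in the low. Its highest value was 10622 TPM, in WT IMN 4. Ttr, the main transcript of choroid plexus, exceeded 10 times its median in 13 libraries, 4 high, 4 low and 5 between, and reached 28369 TPM. Without those 13 libraries the log2 difference of Mbp was 2.88. The part of region and of choroid plexus in the remaining differences was not tested.

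Inside each study group, the 4 libraries with more Mog were set against the 4 with less, which asks whether the direction is that of single groups or shared. The mean of Mog differed by 1.67 times in WT FLX, the narrowest group, and by 6.79 times in Brd1+/- FLX, the widest. Of the 48 oligodendrocyte genes, 46 were higher in all 6 groups, where 10.5% of all genes were and 6.41% were lower in all 6. The exceptions were Omg and Qdpr, each higher in 5 groups. The median of the 48 was positive in every group, from 0.68 in WT FLX to 2.16 in Brd1+/- FLX, and those of astrocyte, microglial, vascular and fibroblast lists were positive in all 6 as well.

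Of the neuronal lists, that of the thalamus was above 0 in all 6 groups (0.21 to 1.03) and the others did not keep one direction. The cortical and basolateral glutamatergic list was lower with more Mog in 5 groups, from −3.36 in Brd1+/- FLX to −0.56 in Brd1+/- IMN, and higher, at 0.56, in WT FLX. The striatal list ran from −2.43 in WT IMN to 2.73 in WT vehicle, and the hypothalamic list from −1.77 in WT FLX to 3.03 in WT IMN. Direction with Mog was thus shared between groups for myelin genes. It was mixed for the lists of regional neurons other than the thalamic one, as the plot of list medians by group shows. The thalamic median kept its sign, but its members did not move together. Of its 9 genes 4 were higher in all 6 groups, and between the ends 6 were higher and 3 lower. The median sum of that list was 93.5 TPM in the high and 222 TPM in the low set.

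**Figure D3:**
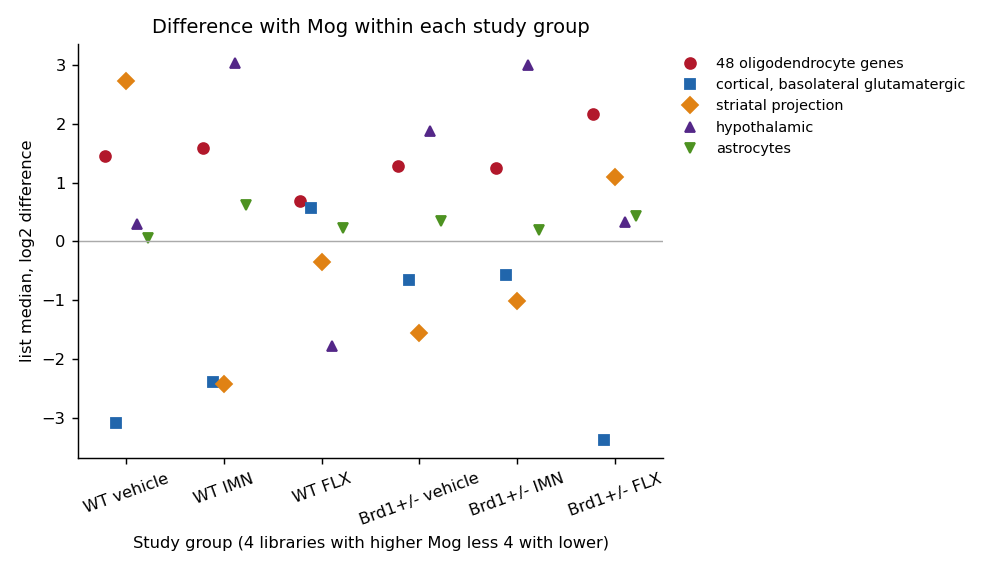
List medians of the log2 difference between the 4 libraries with higher and the 4 with lower Mog inside each of the 6 study groups, for the 48 oligodendrocyte genes and 4 other lists. The oligodendrocyte median is above 0 in all 6 groups (0.68 to 2.16), whereas the striatal and hypothalamic medians lie on both sides of 0.

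The 24 libraries between the sets, where Mog ranged from 53.4 to 167 TPM, tested the relation in samples that the choice of the ends had left out. The slope of log2(TPM + 0.1) on log2 Mog was fitted for every gene, and a slope of 1 means a change in proportion to Mog. Of the 48 oligodendrocyte genes, 47 rose with Mog (limma, adjusted p under 0.05), where 24.3% of all 19221 genes rose and 6.7% fell. Their median slope was 0.90, against 0.13 over all genes. Libraries rich in striatal genes lay in the lower part of this range of Mog, as given below, and their part in the calls was not tested. After the levels were scaled to the median ratio of all genes, which took the median slope of all genes to 0, 505 genes rose and 250 fell, or 66.9% of the calls upward in place of 78.4%. With the study groups as a term 436 passed, 93.6% of them upward, and with both changes 168 rose and 0 fell. Without WT vehicle 3, 16.1% of genes rose and 4.67% fell. The oligodendrocyte genes called under those settings were 46, 45 and 41 of the 48 in that order, and 47 without WT vehicle 3.

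Mbp had a slope of 1.18 (SE 0.11, adjusted p = 8.44e-08) and kept its call with the groups as a term (slope 1.15, adjusted p = 2.9e-05). Its level in the 24 libraries ran from 225 to 962 TPM and followed Mog with Pearson r = 0.904 (permutation p = 1e-05) and Spearman rho = 0.832 (permutation p = 1e-05), the smallest p that the 100000 resamples can give, 2-sided. Without the 2 libraries farthest from the median of Mog, r was 0.897 (n = 22). This was the only pair of genes tested in this way. Slopes close to 1 were those of Gjb1 (1.09, SE 0.08), Hapln2 (1.09, SE 0.08) and Myrf (0.98, SE 0.07). Slopes were lower for Cers2 (0.77), Sox10 (0.79) and Car2 (0.50). Sox8 was the one member that did not pass (slope 0.06, SE 0.10, adjusted p = 0.659), and the call for Omg (slope 0.17) was lost with median-ratio scaling (adjusted p = 0.432).

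Of the 1066 genes at least 2-fold higher in the high set, 915 (85.8%) had a positive slope in the middle libraries, against 70.5% of all genes, and 575 rose, or 53.9% against the 24.3% of all genes. Klk6 rose with a slope of 2.03 (SE 0.22, adjusted p = 4.51e-07), the steepest among the protein-coding genes of the 12 named as most different in each direction, and Cyp2j12, Prr5l and Tmem88b rose with slopes of 1.24, 1.24 and 0.96; all 4 kept their calls with scaling, with groups as a term and with both. Itgb4 rose with a slope of 0.95 but lost the call with groups as a term (adjusted p = 0.134). Prima1 did not pass (slope −0.23, adjusted p = 0.705). In the precursor list 8 of 11 rose, among them Enpp6 (1.02) and Bcas1 (0.74), which kept their calls, and Pdgfra (0.43), which lost it with median-ratio scaling (adjusted p = 0.278). The count for that list was 3 with median-ratio scaling, 3 with groups as a term and 2 with both, and its median slope of 0.51 became 0.31, 0.50 and 0.30 in the same order. Among astrocyte genes S100b rose with a slope of 0.56 under every such setting, whereas Gfap (1.28, adjusted p = 0.00562) lost its call with groups as a term (adjusted p = 0.0716).

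The lower genes were followed in the same way. Of 743 genes at least 2-fold lower in the high set, 335 (45.1%) had a positive slope, against 70.5% of all genes, and 16.7% of the 743 fell against 6.7% of all genes. Of the 16 glutamatergic genes, Camk2a (slope −0.76) and Lamp5 (−0.84) fell, and Neurod1 (1.42) rose, and with the study groups as a term 0 of the 16 passed (limma, 2 at an unadjusted p under 0.05). Slc17a7 had a slope of −0.22 (SE 0.93, adjusted p = 0.872), an error so wide that neither the size seen between the ends nor none can be told from these 24 libraries. The basal forebrain genes were likewise uneven, with Chat at 0.05 (SE 0.75), and Nkx2-1 (0.65) as the one member that rose. Of the named lower genes, Sv2b (−0.60) and Igfbp6 (−1.18) fell, and with groups as a term their adjusted p was 0.338 and 0.182.

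Striatal and hypothalamic genes had the steepest list medians in the middle libraries, −1.87 and 3.46. Of 13 striatal genes 11 fell, where 6.7% of all genes fell and 24.3% rose. Among them was the dopamine receptor Drd1 (limma, slope −2.20, adjusted p = 0.0064), while the list's median between the ends was 0.37, of opposite sign. The highest striatal list sums, from 8828 TPM (WT IMN 2) to 13534 TPM (WT vehicle 3), all lay at ranks 25 to 35 by Mog. The same libraries had 144692 TPM (WT IMN 2) to 169729 TPM (Brd1+/- IMN 2) of mitochondrially encoded mRNAs. Striatal sums reached 5169 TPM at ranks 13 to 24, 6098 TPM in the high set and 5239 TPM in the low set. The part of the striatum-rich libraries in the slopes was not tested. Of 10 hypothalamic genes, which were also higher between the ends, 8 rose, with Avp, the vasopressin precursor, at a slope of 6.74 (SE 1.15, adjusted p = 0.000347). With the study groups as a term 0 of the striatal and 1 of the hypothalamic genes kept a call, and with median-ratio scaling 0 and 3, while the striatal median slope stood at −1.96 and −1.58 and the hypothalamic at 3.04 and 3.22 under these changes. At an unadjusted p under 0.05 there were 11 and 8 striatal genes of the 13 in the same order. Of the 13 mitochondrially encoded mRNAs 12 fell, with a list median slope of −0.30, and with groups as a term or with median-ratio scaling 0 passed (limma, 12 and 11 at an unadjusted p under 0.05), although all 13 slopes stayed below 0 with medians of −0.30 and −0.36. With quantile normalization the median was −0.016, and 4 of the 13 slopes were above 0. Between the ends all 13 were slightly higher, with a median of 0.07.

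**Figure D4:**
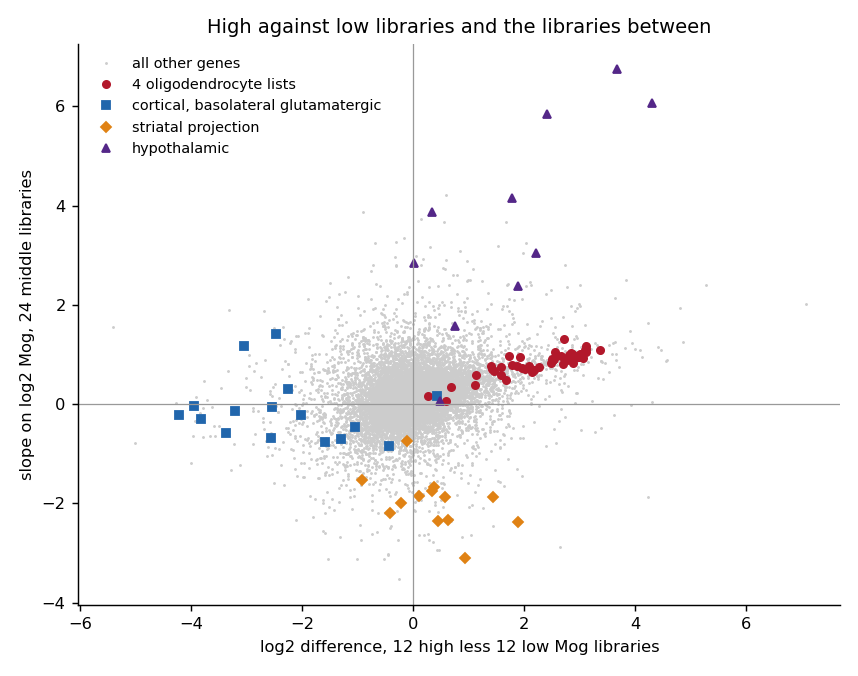
Slope on log2 Mog in the 24 middle libraries (vertical) against the log2 difference between the 12 high and 12 low libraries (horizontal) for each of 19221 genes, with 4 kinds of gene coloured. Oligodendrocyte genes all lie to the right of 0 with slopes of 0.06 to 1.32, among them Omg (0.26, slope 0.17) and Gjb1 (3.36, slope 1.09). Most glutamatergic genes lie far to the left with slopes on both sides of 0, and most hypothalamic and striatal genes have steep slopes of opposite sign.

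The study compared genotypes and drugs, and the 6 groups were not spread evenly over the order. Brd1+/- vehicle gave 3 high and 0 low libraries, WT vehicle 1 high and 4 low, and Brd1+/- IMN 0 high and 3 low. WT IMN gave 3 and 1, WT FLX 2 and 1, and Brd1+/- FLX 3 and 3. Mog ran from 53.4 to 373.8 TPM in Brd1+/- vehicle (median 137.7) and from 15.6 to 260 TPM in WT vehicle (median 46.1). The groups overlapped widely, since a single WT vehicle library held the 260 TPM and the next highest of that group had 117 TPM.

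**Figure D5:**
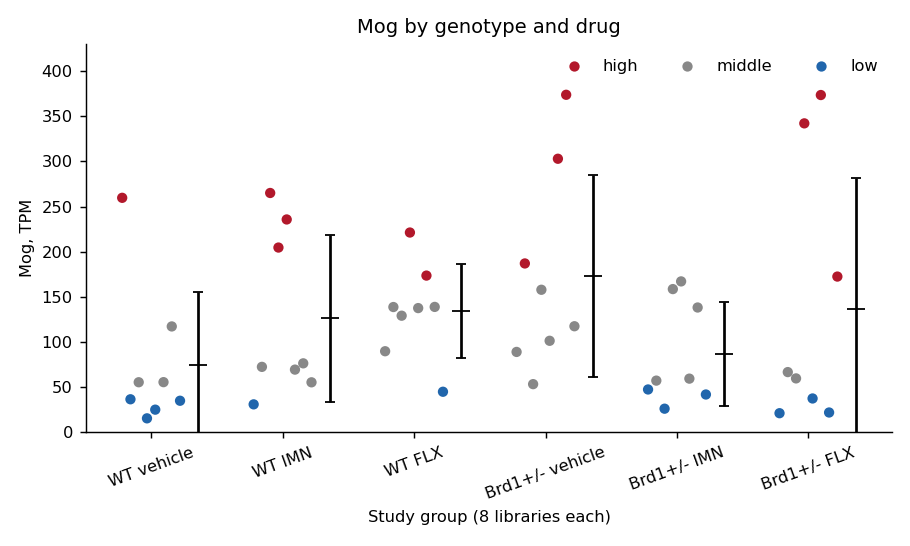
TPM of Mog in the 8 libraries of each of the 6 study groups (points, coloured by set), with the group mean and SD beside them. The groups overlap, and Brd1+/- vehicle has no library in the low set while Brd1+/- IMN has none in the high set.

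Mog was higher in Brd1+/- than in WT animals under vehicle by 1.49 on the log2 scale (2.82-fold, exact permutation p = 0.0213, 2-sided, 0.101 after adjustment over the 7 comparisons). WT FLX exceeded WT vehicle by 1.26 (exact permutation p = 0.0287, adjusted 0.101), and Brd1+/- IMN was below Brd1+/- vehicle with a difference of −1.02 (exact permutation p = 0.0533, adjusted 0.124). The other 4 differences lay between −0.87 and 0.93 with adjusted p of 0.244 to 0.391, so no difference of Mog between groups passed the threshold. Several of the 7 comparisons share their control libraries and are not independent. Each library also carries a sample code number, and every vehicle library has a lower number than any IMN or FLX library. A difference between drug and vehicle, in Mog or in any other gene, therefore cannot be separated from a difference between these ranges of numbers. Whether the ranges mark separate batches was not tested.

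No oligodendrocyte gene passed the test across all genes in any of the 7 comparisons (limma, 49 genes with Mog). Under vehicle, Brd1+/- against WT gave 172 calls among 24279 genes (0.708%), and the 49 had a median difference of 1.23, with 46 at an unadjusted p under 0.05, where 2068 of the 24279 genes were, and a lowest adjusted p of 0.268. Under FLX the genotypes gave 364 calls (1.54%) and under IMN 4 (0.017%), with oligodendrocyte medians of −0.51 and −0.43. Within WT, FLX against vehicle gave 79 calls (0.335%), a median of 0.98 and 38 of the 49 at an unadjusted p under 0.05, where 3949 of 23557 genes were, and IMN against vehicle 0 calls (0%), a median of 0.70 and, over all genes, 1084 with an unadjusted p below 0.05. Within Brd1+/- the 2 drugs gave 188 (0.776%, IMN) and 178 calls (0.731%, FLX), with medians of −0.94 and −0.71. At an unadjusted p under 0.05 were 40 of the 49 for IMN, where 2252 of 24225 genes were, and 0 of the 49 for FLX, where 1689 of 24336 were. The calls of drug against vehicle in both genotypes share the limit of the code numbers given for Mog. Brd1 itself, the deleted gene, was lower in Brd1+/- libraries by −0.45, −0.68 and −0.49 under vehicle, IMN and FLX, with adjusted p of 0.0512, 0.102 and 0.0362, and its level in the high and low Mog sets was 29.5 TPM ± 6.73 and 30.4 ± 7.01 (SD, n = 12 each).

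With log2 Mog as a covariate the genotype calls under vehicle went from 172 to 91, all 91 among the 172, and those of FLX in WT from 79 to 0. The calls of FLX in WT were also 0 with the replicate number as a term in place of Mog. Under FLX the genotype calls went from 364 to 424, with 298 shared, and under IMN from 4 to 5, with 4 shared. Within Brd1+/- the calls of IMN went from 188 to 128 (119 shared) and those of FLX from 178 to 188 (156 shared). Those of IMN in WT stayed at 0. Why the counts moved was not tested. Of the 364 genotype calls under FLX, 37 were at least 2-fold higher in the high Mog set and 4 at least 2-fold lower. Over the 19221 genes with a mean of at least 1 TPM the shares were 5.55% higher and 3.87% lower. The comparisons used another filter, so these shares are only a rough scale. The 37 were led by the glycine receptor Glra1 (limma, −4.29, adjusted p = 0.0254, Brd1+/- less WT) and the hypothalamic factor Lhx5 (−4.23, adjusted p = 0.0284). In WT FLX against vehicle 17 of the 79 were at least 2-fold higher in the high Mog set, among them Lpo, a peroxidase (limma, 2.81, adjusted p = 0.0383). At least 2-fold lower were 5 of the 79. Several of the strongest calls under vehicle and within Brd1+/- were short noncoding RNAs, such as Gm22009 (5.34, adjusted p = 7.89e-06, Brd1+/- vehicle less WT vehicle).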

How the data were processed

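Total RNA from amygdala punches was made into TruSeq libraries and sequenced by the authors, whose processing notes name FastQC, Trimmomatic, HISAT2 (2.1.0) and StringTie (1.3.4) on GRCm38. The deposited values are TPM per gene, scaled by the authors for length and library total (sums of 999524 to 999772 per library). TPM keeps no depth, so the reads behind a value are unknown and no counting interval is given. Use of strand in counting is not given in the sources used here. The series' design text names other regions, and the samples' own labels (amygdala) were followed.

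Libraries were grouped by title. Of 52636 genes, 52489 matched GENCODE M21. Genes with a mean of at least 1 TPM over 48 libraries were described on log2(TPM + 0.1), a scale that understates the change of low genes. Tests used limma 3.58.1 in R 4.3.3 (eBayes with trend, Benjamini-Hochberg 0.05). The 7 genotype and drug comparisons used the 16 libraries of each pair of groups and genes with at least 0.1 TPM in at least 8 of them, since the count model of the study needs counts. The limma fits were tested on simulated data. Mog between groups had an exact permutation test over 12870 arrangements.

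The members and lists were chosen with earlier results of these data known. Named were Mog, Mbp and Brd1, the members of the 4 oligodendrocyte lists, in each direction up to 12 genes, the most different ones among those of at least 5 TPM and one sign in all 6 groups, up to 4 members of each other list with the largest difference, the 5 genes most like Mog, and up to 3 called genes per comparison also past 2-fold between the sets. A few further list members were named after their values were seen, such as Pdgfra, Cspg4, Zic1, S100b, Drd1, Camk2a and Lamp5. The alternatives changed the pseudocount, filter, scaling, set size, ranking gene set, group term, trend, covariate and replicate block, or left out single libraries or those with choroid plexus RNA. Some members of the lists are counted but not reported here by name.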

Additional observations from a re-analysis of the deposited data

Results flagged for a closer look

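In 3 of the 18 tests of a group's most extreme library (Mog, Mbp and Slc17a7 in each of 6 groups of 8), the gap to the nearest library exceeded Dixon's 95% critical value. The tests used TPM without logs. Chance flags about 1 in 20 groups where values are normally distributed, which was not checked for TPM and need not hold. The flags for Mog and Mbp fell on the same library and are not independent. WT vehicle 1 had 259.7 TPM of Mog and 1959 TPM of Mbp, far above the other 7 WT vehicle libraries for both genes. WT FLX 6 had 739 TPM of Slc17a7, apart from its group, and is a high Mog library.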

How the results depend on the processing

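The direction of Mbp, of the structural myelin list and of the glutamatergic list between high and low libraries was the same under all alternatives run, and TPM without depth limits what low genes can show. The counts of genes at least 2-fold higher and lower (1066 and 743) became 666 and 383 with a pseudocount of 1, 1665 and 1203 without a filter and 558 and 371 at a mean of at least 5 TPM, and with 8 against 8 libraries the lower count was 1132 and the structural median 3.19. In the middle libraries the share of genes that rose and fell with Mog (24.3% and 6.7%) became 10.5% and 2.99% without a filter, 2.63% and 1.3% with median-ratio scaling (505 and 250 genes), 4.72% and 3.5% with quantile normalization (907 and 673), 2.12% and 0.146% with study groups as a term, and 0.874% and 0% with median-ratio scaling and groups (168 and 0), an alternative added after the data were seen; the cause was not tested. Leaving out each library in turn gave 1021 to 1110 and 699 to 824 genes past 2-fold, a structural median of 2.67 to 2.84, a glutamatergic median of −2.70 to −2.29, an Mbp difference of 3.00 to 3.20, an Mbp slope of 1.14 to 1.26, 16.1% to 31.9% of genes rising and 4.67% to 7.87% falling (lowest without WT vehicle 3), and 47 of 48 oligodendrocyte genes throughout. The difference of Ccdc153 reversed with groups as a term (0.88 against −1.09), and the slope of mt-Nd2 with quantile normalization (0.039 against −0.26).

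Calls between Brd1+/- and WT under vehicle (172) became 294 without a filter, 24 at 1 TPM, 88 with quantile normalization and 91 with Mog as a covariate. Those under FLX (364) became 224 without a filter and 213 without trend. WT FLX against vehicle (79) gave 51, 128 (at 1 TPM), 27 (without trend) and 0 (Mog as a covariate). Brd1+/- IMN against vehicle (188) gave 294, 23 and 81, and Brd1+/- FLX against vehicle (178) gave 275, 24 and 94, without a filter, at 1 TPM and with quantile normalization. The sample labels give a replicate number and no litter, whereas the paper describes WT and Brd1+/- mice as litter-matched. Correlations of same-numbered deviations ran from −0.351 to 0.396, which cannot show whether samples were paired. With the replicate block the calls were 63, 46, 0, 87 and 81 in the order given here.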
